A study of Mus musculus with 74 samples.

Results

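The forestomach and the hindstomach of mouse embryos at embryonic day 16 (E16) were compared by RNA-seq of their epithelium. The comparison rests on 4 libraries, 2 of each region, out of 31 RNA libraries and 74 samples in the whole study, and they were taken by their labels alone. All 4 came from untreated wild-type embryos of the CD1 strain. For both regions the tissue was dissociated with trypsin, cells positive for the epithelial surface protein Epcam were sorted by flow cytometry, and RNA was amplified with a kit for very low input. The same 2 regions at E14, again wild-type CD1 with 2 libraries each and the same sort, served to ask whether a difference seen at E16 had been present 2 days earlier. The Y-linked gene Ddx3y had 0 counts in every E14 library of these regions and 136 to 1042 counts in those of E16. The days thus differed in the sex of the embryos, and the part of this in changes between the days was not tested. The labels do not say whether the 2 libraries of a group came from separate litters. The p-values below rest on the spread between libraries of a group, estimated jointly over all 27 embryonic libraries in 13 groups. That spread may be technical, and it is not that of the compared libraries alone.

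The mouse stomach has an upper chamber, the forestomach, lined by stratified squamous epithelium like that of the oesophagus, and a lower glandular chamber, the hindstomach, made up of corpus and antrum. In squamous epithelium, basal cells that depend on the transcription factor p63 and make keratins 5, 14 and 15 give rise to suprabasal cells, which change their keratins and finally assemble a cornified envelope of cross-linked proteins. Glandular epithelium is a single layer of cells that make simple keratins, and it forms mucous pit and neck cells, enzyme-secreting chief cells, acid-secreting parietal cells and hormone-producing enteroendocrine cells under factors such as Gata4, the Foxa proteins and Hnf4a.

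The forestomach libraries were the shallower ones, with 5970227 and 6335340 counts in genes against 18446460 and 18956478 in the hindstomach libraries. Levels are given as CPM, counts relative to the total of a library scaled by the trimmed mean of M values (TMM). On that scale the level of 3 counts was 0.463 and 0.459 CPM in the forestomach libraries and 0.133 and 0.13 CPM in the hindstomach libraries. All 4 libraries also held RNA of cells that the sort should have removed. Marker genes of blood, mesenchyme, smooth muscle, endothelium, immune, neural and mesothelial cells, 66 genes in all, took 5.06 to 6.13% of counts in the forestomach libraries and 1.44 to 1.58% in the hindstomach libraries, but 0.0348 to 0.0381% in the 4 stomach libraries of E14. Red blood cell genes made up 1.69 to 2.21% of the forestomach and 0.137 to 0.192% of the hindstomach counts, an 11.9-fold difference, although the adult globin genes Hba-a1, Hba-a2, Hbb-bs and Hbb-bt are listed at 0 in all 4, as can happen where near-identical genes share reads. Smooth muscle genes took 1.75 to 2.16% against 0.223 to 0.224%, and mesenchymal genes 1.38 to 1.57% against 0.804 to 0.855%. In the other direction, pancreatic genes made up 0.298 to 0.332% of hindstomach counts against 0.00893 to 0.0144% of forestomach counts. Intestinal genes (0.0615 to 0.0626% against 0.00204 to 0.00234%) and neural and glial genes (0.117 to 0.12% against 0.00728 to 0.0103%) went the same way. All these shares cover only the listed marker genes, so they are not the full amount of RNA from such cells. By mean level Alas2 (15800 CPM), Acta2 (7800 CPM) and Actg2 (5420 CPM) ranked 2, 3 and 5 in the forestomach. Col3a1 ranked 9 in both regions. The part of these other cells in the results below was not tested, except where a value is given beside a result. In bulk RNA, fewer cells of a type and less RNA per cell cannot be told apart.

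**Figure D1:**
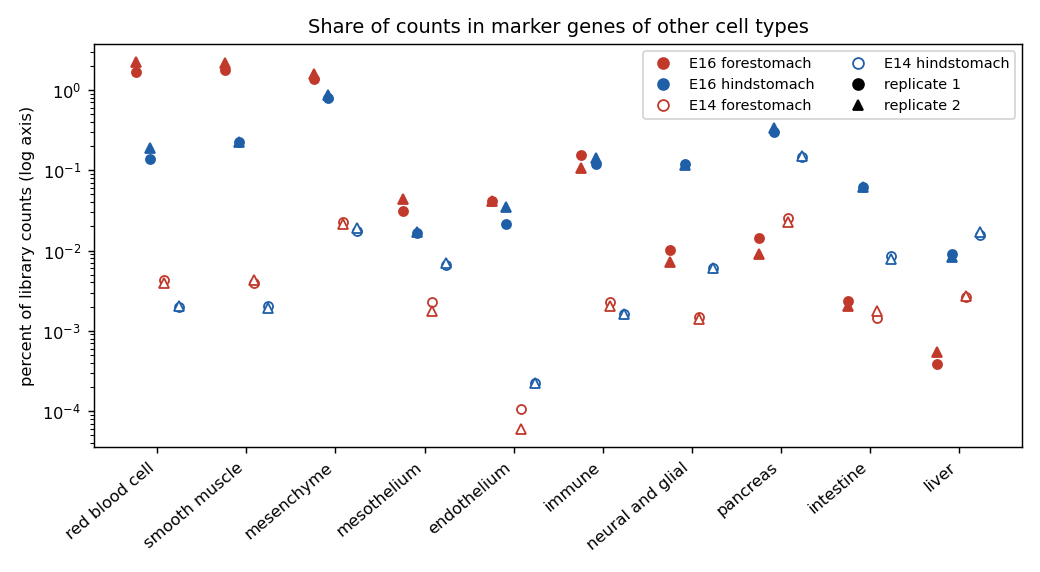
Share of each library's counts, in percent on a log axis, that fell in marker genes of 10 other cell types, with 1 symbol per library (circle for replicate 1, triangle for replicate 2) and filled symbols for E16. At E16 the red blood cell and smooth muscle shares are higher in both forestomach libraries, while the neural, pancreatic and intestinal shares are higher in both hindstomach libraries.

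Epcam and Cdh1, general genes of epithelium, were lower in the forestomach libraries of E16. Epcam, the protein used for the sort, stood at 137 and 112 CPM in the forestomach and 421 and 400 CPM in the hindstomach libraries, and Cdh1, which encodes E-cadherin, the adhesion protein of epithelial cell junctions, at 102 and 91.7 against 510 and 483 CPM. The groups did not overlap for either gene. The log2 fold change, forestomach minus hindstomach, was -1.72 ± 0.13 (SE, adjusted p = 1.25e-08) for Epcam and -2.36 ± 0.13 (adjusted p = 1.95e-10) for Cdh1. At E14 the same genes differed by 0.13 and 0.08 on that scale and were not called, and the change between the days passed the test for both (-1.85 ± 0.18 and -2.44 ± 0.18, adjusted p = 1.37e-06 and 6.30e-08). The E16 difference of Cdh1 is used below as a yardstick for genes that were lower in the forestomach. It comes from these same data, and whether both epithelia hold equal Cdh1 RNA per cell was not tested.

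Across the transcriptome, 17239 of 24015 gene symbols passed the filter on low counts and were tested with the edgeR quasi-likelihood test. The kit does not mark strand, so overlapping genes on opposite strands cannot be told apart, and near-identical copies such as the Krt6, Sprr2 and insulin genes are uncertain. Calls needed a log2 fold change of 1 or more in size together with an adjusted p (Benjamini-Hochberg) under 0.05. At E16, 3464 genes were called (20.1%): 1081 were higher in the forestomach (6.27%) and 2383 lower (13.8%), so that 31.2% of the calls were higher. The median log2 fold change over all tested genes was -0.13. With the scaling of DESeq2 (RLE) it was 0.01 and 43.5% of the calls were higher, so the balance between the directions, though not the direction of any call kept by both, moved with the scaling. Most differences were between 2-fold and 4-fold: 527 of the higher and 1245 of the lower genes had a log2 fold change from 1 to 2 in size, and 105 and 256 had one of 6 or more. At E14, 1459 genes were called (8.46%), 491 higher (2.85%) and 968 lower (5.62%). Without E14 forestomach replicate 1 there were 960 calls, 594 of them lower, and without E14 hindstomach replicate 1 or 2 there were 293 or 295 higher. The 747 genes called in the same direction on both days were 21.6% of the E16 calls and 51.2% of the E14 calls, and 72 genes were called in opposite directions. Correlations over genes gave the same order, as a description: Spearman's rho between a forestomach and a hindstomach library was 0.951 to 0.958 at E14 and 0.875 to 0.888 at E16, over 4 pairs each.

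**Figure D2:**
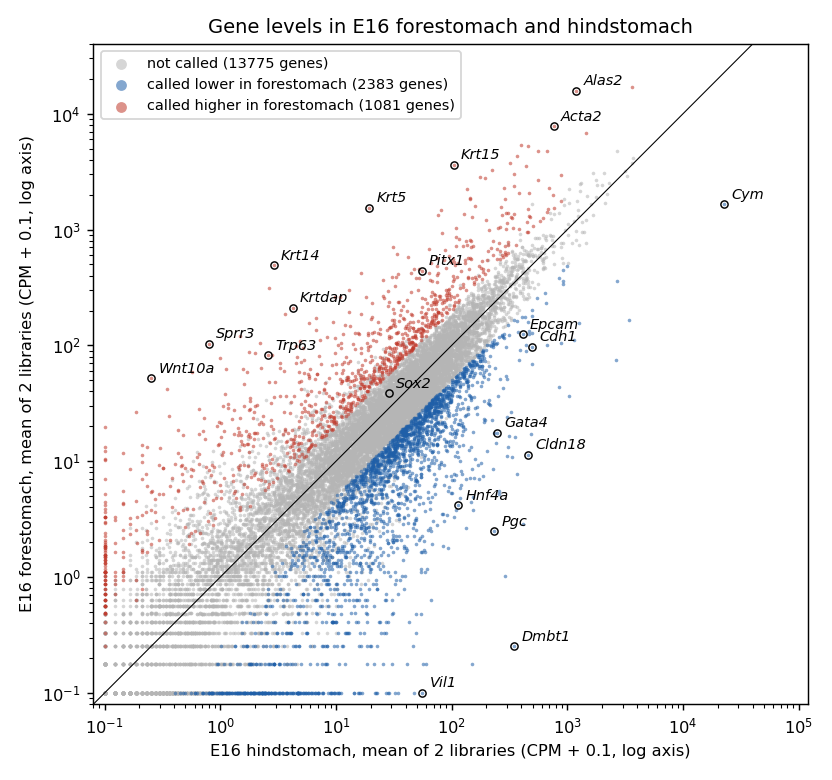
Mean level of each tested gene in 2 E16 hindstomach libraries (x axis) and 2 E16 forestomach libraries (y axis), both as CPM + 0.1 on log axes, with called genes in red and blue and 20 genes marked. Keratins of stratified epithelium lie far above the line of equality and genes of glandular stomach far below it, with the blood and smooth muscle genes Alas2 and Acta2 among the genes above it.

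Of the regulators of squamous epithelium, 9 of 23 tested were higher in the forestomach, none was lower and 14 were not called, with a median log2 fold change of 0.78 against -0.13 for all genes. Trp63, the gene of p63, stood at 77.3 and 86.6 CPM in the forestomach and 3.06 and 1.91 CPM in the hindstomach libraries. Neither group overlapped the other, and the difference was 32.9-fold (log2 fold change 5.04 ± 0.62, adjusted p = 8.53e-06). The homeobox gene Pitx1 stood at 482 and 403 against 56.4 and 53.5 CPM, 8.05-fold apart (adjusted p = 5.90e-08), and Klf4, a factor of terminal differentiation in stratified epithelia, at 185 and 143 against 55.3 and 66.6 CPM (2.69-fold, adjusted p = 1.82e-05). Tfap2c, Sox15, Pax9, Foxe1, Dlx3 and Trp73 were also higher, each with at most 1 CPM in either hindstomach library.

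Sox2, which patterns the foregut toward oesophagus and stomach, was not called at E16. It read 41.4 and 35.4 CPM in the forestomach and 32.4 and 25.1 CPM in the hindstomach libraries. The groups did not overlap but lay close together, with a log2 fold change of 0.42 ± 0.43 (adjusted p = 0.502). At E14 Sox2 had stood at 190 and 153 against 92.3 and 68.2 CPM. That difference, 1.09 ± 0.41 on the log2 scale, also missed the threshold (adjusted p = 0.111). Klf5 (244 and 227 against 348 and 291 CPM) and Sox21 (72.1 and 67.4 against 95.7 and 92.8 CPM) were not called on either day. Gata3 had been called higher in the forestomach at E14, with a log2 fold change of 4.38, and was not called at E16, where the value was 0.60. The fall between the days passed the test (-3.78 ± 0.83, adjusted p = 0.00394).

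Among basal keratins and genes that anchor basal cells to the basement membrane, 8 of 17 were higher in the forestomach and 1, the integrin gene Itga6, was lower, with a median log2 fold change of 1.28. Krt15 stood at 3850 and 3420 CPM in the forestomach and 117 and 91.6 CPM in the hindstomach libraries (34.9-fold, adjusted p = 1.77e-07), and its partner Krt5 at 1730 and 1360 against 20.7 and 18 CPM (79.9-fold, adjusted p = 1.58e-05). Krt14, the type I keratin that pairs with keratin 5 in basal cells, stood at 536 and 448 against 1.24 and 4.35 CPM (175-fold, adjusted p = 1.68e-05). For all 3 keratins the lower forestomach library lay far above the higher hindstomach library. Krt5 and Krt15 had been called at E14 too, with log2 fold changes of 7.15 and 6.31. Krt14 was then scarce, at 2.91 and 2.49 CPM in the E14 forestomach, with 1 and 0 counts in the E14 hindstomach, and the change of its difference could not be estimated closely (0.60 ± 10.53, adjusted p = 1). Col17a1, the collagen of the hemidesmosome, read 98.3 and 120 against 5.01 and 4.61 CPM. Its fibril-forming relative Col7a1, one of the genes outside the lists with the largest differences, read 57.7 and 66 against 1.2 and 0.826 CPM (60.8-fold, adjusted p = 0.000384).

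The keratins of suprabasal cells also differed between the regions. Of 10 tested, 7 were higher and none lower, with a median log2 fold change of 3.77, and the count was 4 without either forestomach replicate or without hindstomach replicate 1. Krt4 and Krt13 form the keratin pair of internal, non-skin squamous epithelia. Krt4 stood at 1310 and 1620 CPM against 85.6 and 75.7 CPM (18.2-fold, adjusted p = 3.68e-05) and Krt13 at 636 and 584 against 31.2 and 35.4 CPM (18.3-fold, adjusted p = 1.01e-05). Both were called at E14 as well, but from low levels, 5.52 and 8.31 CPM for Krt4 and 3.81 and 5.39 CPM for Krt13 in the forestomach. Krt6a, whose counts may be shared with its near-identical copy Krt6b, read 146 and 163 against 3.99 and 7.57 CPM. Of the skin keratins, Krt10 read 34.9 and 15.3 against 6.88 and 8.66 CPM (log2 fold change 1.69, adjusted p = 0.00183), a call that was lost without forestomach replicate 1 (0.98, adjusted p = 0.0936), and Krt1 read 9.11 and 8.73 against 0.577 and 1.17 CPM and missed the threshold (adjusted p = 0.0538).

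Cornified envelope genes encode the cross-linked shell of the outermost squamous cells and its enzymes. At E16, 14 of 21 tested were higher in the forestomach and none lower, with a median log2 fold change of 3.84. At E14 the median had been 0.00, with 3 higher and 1 lower. Of the 30 genes on the list, 8 more were in the table but under the filter and 1 was not matched by symbol. Sprr3, a small proline-rich envelope protein of oesophagus-like epithelia, stood at 99.9 and 106 CPM in the forestomach and 0.444 and 0.957 CPM in the hindstomach libraries (146-fold, adjusted p = 7.60e-06), and at 0 and 0.0723 CPM in the forestomach of E14. Lor, the envelope protein loricrin, stood at 36.1 and 40 against 0.932 and 1.04 CPM (38.3-fold, adjusted p = 0.000103), and Krtdap, a keratinocyte differentiation protein, at 241 and 181 against 4.44 and 3.83 CPM (51-fold, adjusted p = 4.95e-05). Cnfn (317 and 308 against 0.621 and 4.44 CPM), Crct1 (48 and 36 against 0.488 and 0 CPM) and the corneodesmosome gene Cdsn (21.1 and 17.8 CPM against 0 in both hindstomach libraries) had the same pattern. Dmkn (142 and 108 against 11.4 and 11.6 CPM) and Asprv1, a protease of the outer layers (266 and 262 against 8.83 and 10.7 CPM), were higher with smaller folds. Involucrin, Ivl, was near the level of a few counts in every library, at 0.463 and 1.22 against 0.133 and 0.522 CPM, and was not called (adjusted p = 0.57).

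**Figure D3:**
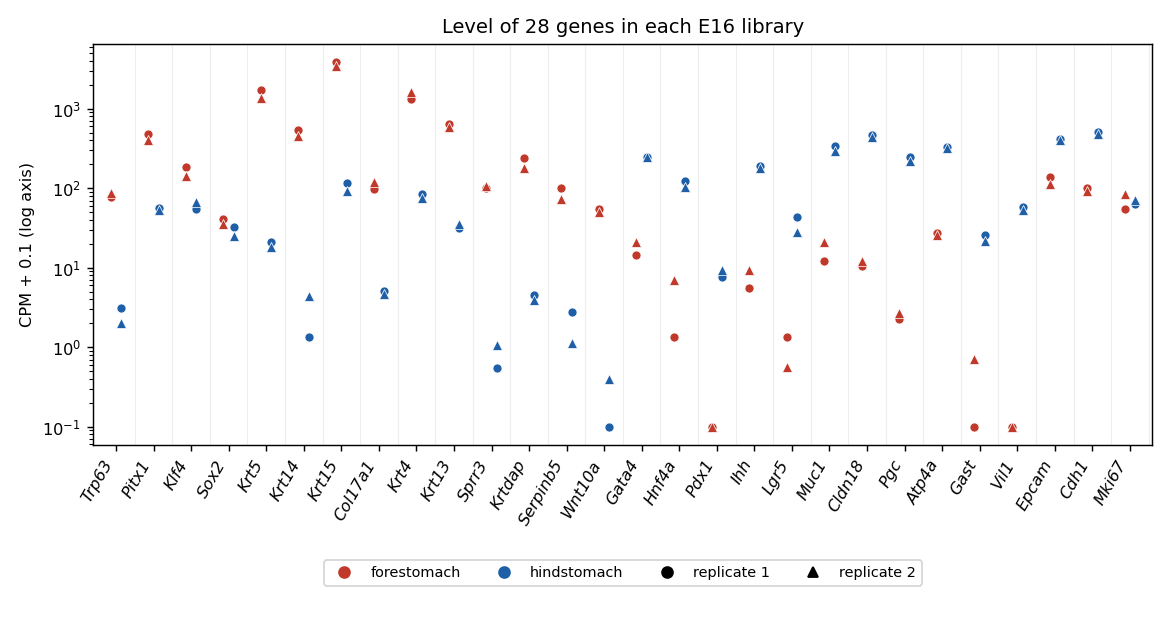
Level of 28 genes in each E16 library as CPM + 0.1 on a log axis, red for forestomach and blue for hindstomach, with a circle for replicate 1 and a triangle for replicate 2. From Trp63 to Wnt10a the forestomach symbols lie above the hindstomach symbols, with Sox2 close together, from Gata4 to Cdh1 they lie below, and for Mki67 they enclose them.

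Secreted proteins and protease inhibitors of squamous epithelium gave 12 higher and no lower calls among 25 tested, with a median log2 fold change of 2.5. Serpinb5, which encodes the serpin maspin, stood at 100 and 72.4 against 2.71 and 1.04 CPM (46-fold, adjusted p = 3.20e-05), and the surface protein gene Ly6d at 175 and 141 against 24.6 and 21.7 CPM (6.81-fold, adjusted p = 1.17e-05). Lypd3, Klk10, Klk11, S100a14 and S100a16 were also called higher. Of 12 desmosome genes 3 were higher, 2 lower and 7 not called, with a median of 0.55, and the lower share was near the 13.8% of all genes. Pkp1, the plakophilin of stratified epithelia, read 65.8 and 59.1 against 6.83 and 4.83 CPM (10.7-fold, adjusted p = 2.60e-06), and Perp, a p63 target in desmosomes, read 742 and 583 against 92 and 84.7 CPM. The cadherin of simple epithelia, Dsg2, was lower, at 13.4 and 20.4 against 127 and 117 CPM (7.23-fold, adjusted p = 1.32e-08), and so was Pkp2. Dsg3 and Dsc3, cadherins of stratified epithelia, read 16.2 and 20.5 against 3.99 and 3 CPM and 23.3 and 18.5 against 4.61 and 5.96 CPM and missed the threshold (adjusted p = 0.128 and 0.243).

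At E14, where the share of the 66 marker genes was at most 0.0381% in both regions, some of the squamous genes had been called too. Of all 1081 genes higher in the forestomach at E16, 225 were also called higher at E14. Among the squamous genes these were 5 of 9 regulators, 7 of 8 basal genes, 3 of 7 suprabasal keratins, 3 of 14 cornified envelope genes, 3 of 3 desmosome genes and 5 of 12 secreted genes. The cornified envelope share is near that of all genes.

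**Figure D4:**
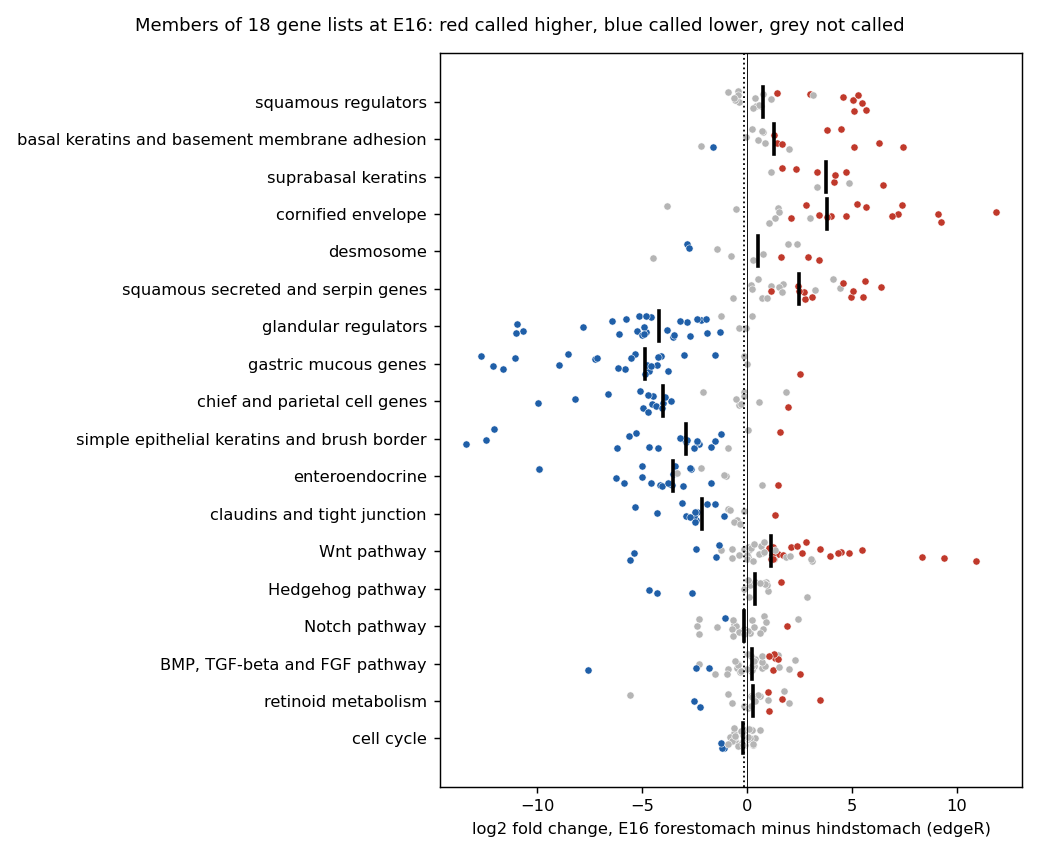
Log2 fold change, E16 forestomach minus hindstomach, of every tested member of 18 gene lists, with 1 point per gene, a black bar at the list's median and a dotted line at -0.13, the median of all tested genes. The 6 squamous lists at the top have medians from 0.55 to 3.84 and the 6 glandular and simple epithelial lists below them from -4.84 to -2.14.

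The transcription factors of glandular endoderm were mostly lower in the forestomach. Of 30 tested, 26 were lower, none was higher and 4 were not called, with a median log2 fold change of -4.20, or -3.68 with the 4 genes that had no forestomach count set at their bound. Gata4, which marks the hindstomach, read 14.2 and 20.8 CPM in the forestomach and 248 and 248 CPM in the hindstomach libraries (14.2-fold lower, log2 fold change -3.82 ± 0.25, adjusted p = 1.06e-09). Hnf4a read 1.23 and 6.89 against 125 and 103 CPM (28-fold, adjusted p = 1.82e-07) and Foxa2 read 1.85 and 0.306 against 13.6 and 10 CPM (10.9-fold, adjusted p = 1.56e-05). Pdx1, a factor of antrum, duodenum and pancreas, had no count in either forestomach library and 7.54 and 9.27 CPM in the hindstomach libraries, at least 18.2-fold lower when 3 counts per library are taken as the floor. Nkx6-3, a factor of the antrum, read 0.617 and 0 against 26.3 and 27.3 CPM. Of the 26, 22 were further down than Cdh1, against 974 of the 2383 genes called lower among all genes tested (5.65% of those tested). The list also holds Cdx1, Cdx2 and Isx, intestinal factors whose 9.54 to 13 CPM in the hindstomach libraries came beside the intestinal share given above.

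Mucous cell genes gave 22 lower and 1 higher call among 25 tested, with a median of -4.84 (-4.74 with groups at 0 set at their bound), and 21 of the 22 were further down than Cdh1. Cldn18, the claudin of gastric tight junctions, read 10.5 and 12.1 against 469 and 446 CPM (40.5-fold lower, adjusted p = 4.23e-09). Muc1, a membrane mucin, read 12 and 21 against 335 and 297 CPM (19.1-fold, adjusted p = 1.36e-09), and the trefoil peptide gene Tff2 read 2.01 and 2.3 against 57.5 and 53.5 CPM (25.7-fold, adjusted p = 1.23e-06). Muc6, the mucin of neck and gland cells, stood at 30.2 and 30.9 CPM in the hindstomach against 0 and 0.153 CPM. Gkn2, a gastrokine of pit cells, had 2 and 0 forestomach counts against 12 and 10.7 CPM, a ratio of 73.7 with a 95% counting interval from 20.3 to 610, and its call was lost without forestomach replicate 1 or 2 (adjusted p = 0.0578 and 0.0774). Cym, the milk-clotting protease chymosin, stood at 1520 and 1800 against 23200 and 21800 CPM, so it was lower in the forestomach (log2 fold change -3.76, adjusted p = 2.66e-08) but far from absent there. Ctse, cathepsin E, was 2.91-fold lower (125 and 134 against 379 and 375 CPM), a call lost without forestomach replicate 1 (adjusted p = 0.0588). The member that was higher was Psca, at 710 and 733 against 133 and 118 CPM.

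Of 23 chief and parietal cell genes tested, 14 were lower in the forestomach, 1 was higher and 8 were not called, with a median of -4.02. The pepsinogen gene Pgc read 2.16 and 2.6 against 247 and 217 CPM (97.2-fold, adjusted p = 3.17e-09) and Gif, gastric intrinsic factor, 3.4 and 5.36 against 144 and 153 CPM (33.9-fold, adjusted p = 1.31e-05). Both subunits of the parietal cell proton pump were lower, Atp4a at 26.9 and 26 against 329 and 324 CPM (12.3-fold, adjusted p = 7.66e-05) and Atp4b at 13 and 13.3 against 282 and 326 CPM (23.1-fold, adjusted p = 1.08e-06). The hindstomach libraries had held 2.29 and 2.63 CPM of Atp4a and 7.87 and 8.05 CPM of Atp4b at E14. Pump subunits were thus above the floor in the forestomach libraries too, as Cym was. Car2, a carbonic anhydrase of parietal cells and also of red blood cells, was the member that was higher, at 1080 and 1470 against 311 and 339 CPM, beside the 11.9-fold higher share of red blood cell genes.

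Simple epithelial keratins and brush border genes were lower in 19 of 22 cases and higher in 1, Krt7, with a median of -2.88. Of the 19, 14 were further down than Cdh1, against 974 of 2383 among all genes called lower. Cdh1 and Epcam are themselves among the 19. Several brush border genes are also genes of intestinal cells, whose markers were lower in 10 of 11 cases, with Alpi, intestinal alkaline phosphatase, at 0.154 and 0 against 57.7 and 60.9 CPM, and their part was not tested. Krt8 read 377 and 347 against 2740 and 2670 CPM (7.47-fold, adjusted p = 2.57e-08) and its partner Krt18 read 144 and 166 against 1290 and 1210 CPM (8.06-fold, adjusted p = 3.10e-10). Krt19 was under the fold minimum, at 728 and 804 against 1440 and 1430 CPM (log2 fold change -0.91, adjusted p = 0.00253). Vil1, the villin of microvilli, had no forestomach count and 58.3 and 52.9 CPM in the hindstomach libraries, at least 121-fold lower. Cdhr2, a cadherin that links microvilli, likewise had none against 23.9 and 19.6 CPM, at least 47.2-fold lower. Tight junction genes followed, with 13 lower, 1 higher and 6 not called of 20 and a median of -2.14, and 10 of the 13 were further down than Cdh1. Cldn7 (80.4 and 68.7 against 403 and 367 CPM) and Ocln (18.2 and 24.2 against 126 and 118 CPM) were among them, with log2 fold changes of -2.37 and -2.52, close to that of Cdh1. Cldn3 was 2.09-fold lower and came under the fold minimum with RLE scaling (-0.87), DESeq2, a fit of only the groups compared or thinning, and without forestomach replicate 1 or hindstomach replicate 2.

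Enteroendocrine genes gave 19 lower and 1 higher call among 25, with a median of -3.53. Neurog3, which starts the endocrine programme, read 0 and 1.07 against 7.06 and 5.87 CPM (adjusted p = 0.00129). Gast, the antral hormone gastrin, read 0 and 0.612 against 26 and 21.3 CPM (75.7-fold, adjusted p = 0.000846), Ghrl, ghrelin, read 3.86 and 3.52 against 39.4 and 55.5 CPM (12.8-fold, adjusted p = 0.000439), and Sst, somatostatin, read 2.01 and 0 against 67.4 and 49.1 CPM (57.9-fold, adjusted p = 0.00127). Chga, a granule protein, read 23.3 and 26.2 against 86.1 and 73.9 CPM, a call (adjusted p = 0.0374) that was lost with RLE scaling, DESeq2 or the replicate block (adjusted p = 0.0621, 0.147 and 0.0601) and without any 1 of the 4 libraries. Several members, such as Chgb, Scg2 and Ddc, are also genes of neurons, and 5 of 8 neural and glial markers were lower in the forestomach too, with a median of -3.26; their part was not tested. The pancreas makes several of these hormones and factors as well, and the hindstomach libraries differed from each other in insulin: Ins2 read 53 and 5.7 CPM and Ins1 12.5 and 0 CPM, against 10.5 and 12.1 CPM and 4.63 and 3.21 CPM in the forestomach libraries. Neither was called. Hdc, which makes histamine in enterochromaffin-like and mast cells, was the member higher in the forestomach, a call lost without any 1 of the libraries.

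Of the Wnt pathway, 20 of 49 tested genes were higher in the forestomach and 5 lower, with a median log2 fold change of 1.15; without hindstomach replicate 1 or 2 the higher count was 13. Among all genes tested, 6.27% were higher and 13.8% lower. Of the ligands, Wnt10a stood at 54.2 and 50.1 against 0 and 0.304 CPM (log2 fold change 8.36 ± 1.41, adjusted p = 0.000509) and Wnt4 at 149 and 113 against 21.8 and 21 CPM (6.11-fold, adjusted p = 0.000333). Wnt3a, Wnt5a, Wnt5b, Wnt6, Wnt7b and Wnt11 were also higher, and of these Wnt5a, with 38.7 and 53.9 against 18.3 and 14.1 CPM, is made by mesenchyme as well. The receptor gene Fzd10 read 12.5 and 7.81 CPM against no count in the hindstomach, at least 77-fold higher, while Fzd5 was 5.35-fold lower (1.54 and 3.37 against 11 and 15.3 CPM, adjusted p = 1.11e-05). The secreted modulators Dkk3, Sfrp2 and Rspo1, genes of mesenchyme and mesothelium in many organs, were higher, at 112 and 139, 186 and 182, and 59.3 and 69 CPM in the forestomach, beside the higher mesenchymal and mesothelial shares. Of the pathway's targets, Nkd1, Lef1 and Sp5 were higher and Axin2 was not called (2.32 and 3.06 against 1.51 and 1.52 CPM, adjusted p = 0.325). The stem cell receptor Lgr5 was lower, at 1.23 and 0.459 against 43 and 27.7 CPM (41.5-fold, adjusted p = 2.73e-08), and its relative Lgr6 higher, at 17 and 16.7 against 0.355 and 0.391 CPM.

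Of 17 Hedgehog pathway genes tested 3 were lower and 1 higher, with a median of 0.40, shares near the 13.8% and 6.27% of all genes. The lower ones included both endodermal ligands. Ihh read 5.4 and 9.19 against 188 and 181 CPM (25.3-fold, adjusted p = 5.08e-11). Shh read 1.7 and 2.45 against 12.6 and 13 CPM (6.16-fold, adjusted p = 3.14e-05), the reverse of E14, when it was higher in the forestomach at 208 and 197 against 42.8 and 51.7 CPM (log2 fold change 2.10, adjusted p = 1.69e-05). The 1 Hedgehog gene that was higher was the co-receptor Gas1, a gene of mesenchyme. Of 23 Notch genes, the ligand Jag2 was higher (62.2 and 61.7 against 15 and 17.7 CPM, adjusted p = 0.0491), a call lost without any 1 of the 4 libraries, and Jag1 was lower. Among all genes 6.27% were higher and 13.8% lower. Without forestomach replicate 2 the lower Notch count was 3. Notch1 (41.2 and 60.8 against 43 and 50.5 CPM) and its target Hes1 (83.4 and 74.4 against 64.6 and 62.1 CPM) were not called. Of 37 BMP, TGF-beta and FGF genes 6 were higher and 3 lower, with a median of 0.25, and the share called was near the 20.1% of all genes. Fgfr2, a receptor for FGF10 in endoderm, read 210 and 202 against 82 and 85.1 CPM (log2 fold change 1.30, adjusted p = 1.43e-06), and the FGF targets Etv4 and Etv5 were lower, at 1.7 and 1.22 against 8.79 and 7 CPM and 21.3 and 20.4 against 77.4 and 66 CPM. Of 20 retinoid genes 4 were higher and 2 lower, with a median of 0.31, beside 6.27% and 13.8% of all genes. The 4 included Aldh1a2, a retinoic acid synthase of mesenchyme and mesothelium, at 175 and 197 against 15.5 and 17.1 CPM, and the receptor gene Rarg, and without hindstomach replicate 2 the count was 2.

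Few cell cycle genes were called. None of 32 was higher and 3 were lower (Top2a, Bub1 and Kif11, 1 of them with RLE scaling), beside 6.27% and 13.8% of all genes. The median was -0.18, next to -0.13 for all genes. Mki67 read 54.2 and 84.5 against 63.5 and 71.3 CPM, with overlapping groups (log2 fold change 0.04 ± 0.20, adjusted p = 0.918), and the replication gene Mcm5 read 101 and 128 against 134 and 127 CPM (-0.19 ± 0.13, adjusted p = 0.297). Top2a was 2.13-fold lower, at 54 and 64.3 against 118 and 134 CPM, and came under the fold minimum with RLE scaling (-0.89), DESeq2, a fit of only the groups compared or thinning, and without forestomach replicate 1 or hindstomach replicate 2.

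Outside the lists, the 12 genes highest in the forestomach by fold, among those reaching 20 CPM, were of mixed kinds. Lgals7, galectin-7 of stratified epithelia, stood at 63.7 and 53.3 against 0.754 and 0.174 CPM (125-fold, adjusted p = 1.08e-05) and Nccrp1 at 93.7 and 81.9 against 0.666 and 2.7 CPM (52-fold, adjusted p = 2.54e-06). The homeobox gene Hoxc5 read 80.3 and 83.4 against 2.84 and 2.61 CPM (30-fold, adjusted p = 0.000334) and had a like difference at E14, with a log2 fold change of 4.99 against 4.91. Redrum, an erythroid non-coding RNA (24.9 and 28.2 against 0 and 0.174 CPM), and the globin gene Hbq1b (41.4 and 51 against 1.29 and 1.74 CPM) are genes of red blood cells, and both calls were lost without hindstomach replicate 1 (adjusted p = 0.0932 and 0.0506), that of Redrum also with DESeq2 (adjusted p = 0.363). Ckm, muscle creatine kinase, read 48.3 and 68.3 against 2.04 and 1.17 CPM. They also included 2300002M23Rik, Col7a1, Upk3bl, Has1 and F830002L21Rik. The call of 2300002M23Rik was lost with DESeq2 (adjusted p = 0.536), and that of F830002L21Rik with DESeq2 (adjusted p = 0.115) and without forestomach replicate 2 or either hindstomach library. The 12 on the hindstomach side included Klk1, Slc9a2, Elane, Nepn, Dmbt1, Lypd8, Cps1, Fcgbp, Abcc8, 2210407C18Rik and Clca3. The call of Elane was lost with DESeq2 (adjusted p = 0.34), with the replicate block (adjusted p = 0.0524) and without either forestomach library or hindstomach replicate 1. Dmbt1, a mucosal scavenger protein, had 2 and 0 forestomach counts against 371 and 322 CPM, a ratio of 2250 with a counting interval from 623 to 18600, and Fcgbp, a mucus protein, read 1.08 and 0.765 against 246 and 331 CPM (311-fold, adjusted p = 9.01e-08). Nepn, the endoderm gene nephrocan, had no forestomach count against 25.5 and 18.7 CPM, at least 47.9-fold lower, and had stood at 284 and 271 CPM in the hindstomach of E14. Abcc8, a potassium channel subunit of endocrine cells, read 0.154 and 0 against 25.4 and 25.2 CPM, in libraries that also held pancreatic RNA.

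The difference between the regions changed from E14 to E16 for 2032 genes (11.8%), 750 toward the forestomach (4.35%) and 1282 toward the hindstomach (7.44%), by a test of the change itself. With RLE scaling 50.5% of the calls were toward the forestomach, against 36.9%. Of the genes called at E16, 1416 (40.9%) also had a change called in the same direction. Of the 1081 genes higher in the forestomach at E16, 248 had been under 1 CPM in both regions at E14, as had 282 of the 2383 lower genes. In the squamous lists the changes went both ways. Of the cornified envelope genes 6 of 21 moved toward the forestomach, with Sprr3 (8.01 ± 2.10 on the log2 scale, adjusted p = 0.0202), Cdsn, Dmkn, Sbsn and Asprv1 among them, and 1 toward the hindstomach. Of the basal genes 3 of 17 and of the desmosome genes 3 of 12 moved toward the hindstomach and none toward the forestomach: the difference fell by 3.69 ± 0.91 on the log2 scale for Col17a1 (adjusted p = 0.0106) and fell by 4.34 ± 0.54 for Pkp1 (adjusted p = 5.85e-05). For both, the forestomach level was close on the 2 days, 141 and 149 CPM at E14 against 98.3 and 120 at E16 for Col17a1 and 51.2 and 37.3 against 65.8 and 59.1 for Pkp1, while the hindstomach level had been 0.529 and 0.451 CPM for Col17a1 and 0.318 and 0.0752 CPM for Pkp1 at E14 and was higher at E16. The Col17a1 change was lost without E16 forestomach replicate 1 (adjusted p = 0.051) or E14 hindstomach replicate 2 (adjusted p = 0.0581), and that of Sprr3 without E14 hindstomach replicate 2 (adjusted p = 0.309) or with all libraries thinned to 1 depth (adjusted p = 0.215). Without E14 hindstomach replicate 2, 3 cornified envelope genes moved toward the forestomach.

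Changes toward the hindstomach were called for 15 of 30 glandular regulators, 9 of 23 chief and parietal genes, 8 of 25 mucous genes and 11 of 22 simple keratin and brush border genes, with 1, 2, 2 and 0 in the other direction. The chief and parietal count was 3 without E16 forestomach replicate 1 and 5 without E16 hindstomach replicate 1, E14 forestomach replicate 2 or E14 hindstomach replicate 2, and the mucous count was 5 without E14 forestomach replicate 1. Foxa2 had not differed at E14 (94.1 and 91.3 against 74.8 and 82.9 CPM), and its difference moved by -3.69 ± 0.57 (adjusted p = 0.000175) as it became scarce in both regions and most of all in the forestomach. Foxq1 turned round, from 292 and 325 against 99.3 and 108 CPM at E14 to 139 and 119 against 511 and 487 CPM at E16 (change -3.53 ± 0.28, adjusted p = 1.23e-07). Atp4b moved by -5.00 ± 0.58 (adjusted p = 2.23e-05) from 9.84 and 12.1 against 7.87 and 8.05 CPM at E14. Gata4 and Hnf4a, already called at E14 with log2 fold changes of -2.61 and -2.94, moved by -1.21 ± 0.31 (adjusted p = 0.0113) and -1.87 ± 0.58 (adjusted p = 0.0326), beside -1.85 for Epcam. Without E16 forestomach replicate 1 neither change was called (-0.96, adjusted p = 0.0825, and -1.12, adjusted p = 0.211), and that of Hnf4a was also lost without E16 hindstomach replicate 1, E14 forestomach replicate 2 or either E14 hindstomach library. Of the 19 enteroendocrine genes lower at E16, 15 had been called lower at E14, and a change was called for 3 of 25, near the 11.8% of all genes. The E14 count of lower enteroendocrine genes was 17, with 10 without E14 forestomach replicate 1 and 8 without replicate 2.

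**Figure D5:**
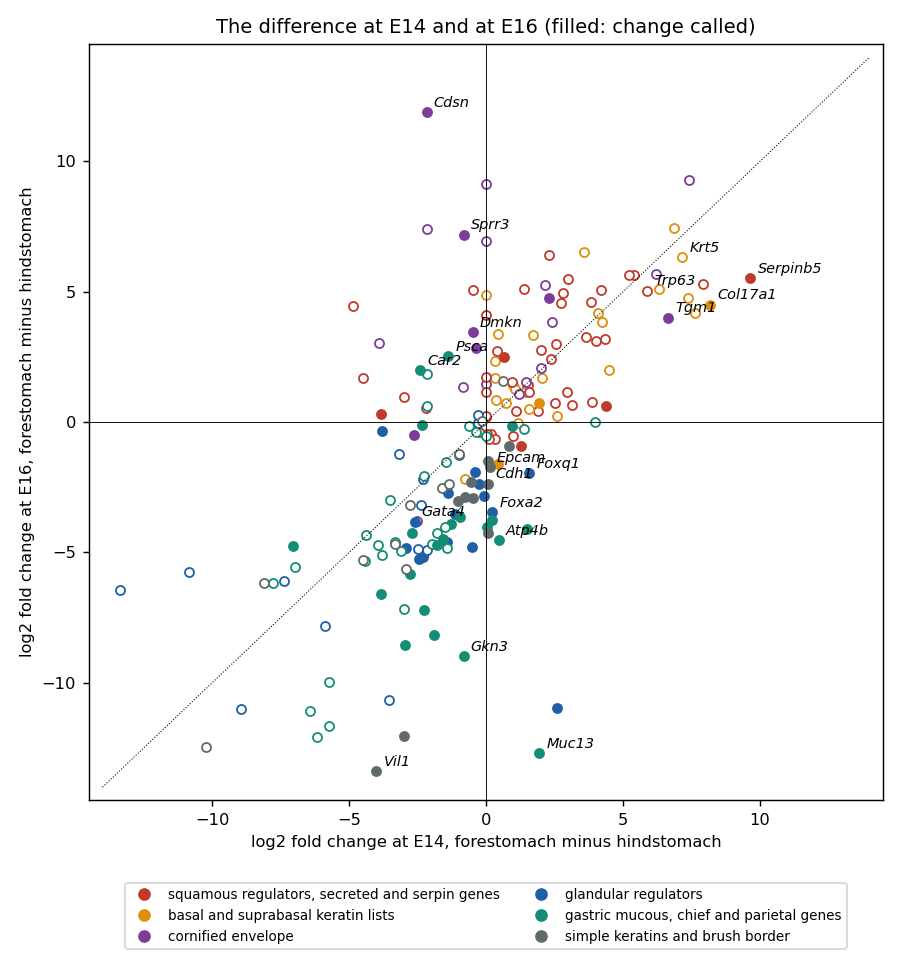
Log2 fold change, forestomach minus hindstomach, at E14 (x axis) and E16 (y axis) of members of 9 squamous and glandular gene lists, with 1 point per gene, filled where the change between the days was called and a dotted line of equal difference. Cdsn, Sprr3 and Dmkn lie below 0 at E14 and above 3 at E16, Col17a1, Serpinb5 and Tgm1 lie under the dotted line, and many glandular genes lie well below it.

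Promoter sequences of RefSeq (GRCm38.p6), each from 250 bases before to 50 after a gene's start, were searched for 9 short motifs on both strands and matched 12705 of the 17239 tested genes by symbol. They are a description of the letters in these windows and not of binding. The letters of the AP-1 motif, TGANTCA, were in 5.6% of all tested promoters, in 9.38% of those of genes higher in the forestomach and in 6.34% of those of genes lower there. Among genes with a log2 fold change of 4 or more in size the shares were 11.8% of the higher and 8.45% of the lower ones. The HNF1 motif was in 0.386% of all promoters, in 1 of 757 promoters of higher genes and in 24 of 1767 of lower genes, and in 16 of 355 (4.51%) where the log2 fold change was -4 or lower. The HNF4 letters CAAAGTCCA were in 0.504% of all promoters and in 3.1% of those 355, and the GATA letters AGATAAG in 2.06% and 4.23%. A TATA box, TATAAA, was in 8.63% of all promoters, 18.3% of those lower by 4 or more and 14.4% of the 153 higher by 4 or more. A pair of p53 family half-sites was in 0.307% of all and in 2 of 757 promoters of higher genes. The forkhead letters TGTTTAC (2.62% of all, 3.7% of higher, 2.32% of lower), the KLF letters CCACACCC (4%, 4.23% and 4.19%) and the SOX letters CATTGTT (2.13%, 2.38% and 2.04%) are given in the same order. Among genes 4 or more higher or lower, KLF letters were in 7.19% and 5.92%, forkhead letters in 2.61% and 3.66%, and SOX letters in 3.27% and 1.69%. Below are the 150 bases before the start of 3 forestomach genes with an AP-1 match and of the hindstomach gene Cdhr2 with an HNF1 match, 5′ to 3′ on the gene's strand, with matches to any of the 9 motifs in capitals. In Lor the capitals are AP-1 at -48 and a TATA box at -27, in Krtdap AP-1 at -81 and a TATA box at -30, in Serpinb5 AP-1 at -140 and KLF at -34, and in Cdhr2 HNF1 at -54, each counted from the gene's start to the match's first base.
Lor, chr3:92083143-92083292, minus strand: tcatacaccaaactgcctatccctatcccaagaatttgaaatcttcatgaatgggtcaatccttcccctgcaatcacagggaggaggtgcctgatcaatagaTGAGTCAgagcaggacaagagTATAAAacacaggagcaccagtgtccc
Krtdap, chr7:30787755-30787904, plus strand: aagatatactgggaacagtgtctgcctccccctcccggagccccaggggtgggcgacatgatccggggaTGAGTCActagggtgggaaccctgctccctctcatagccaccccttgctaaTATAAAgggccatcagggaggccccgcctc
Serpinb5, chr1:106861025-106861174, plus strand: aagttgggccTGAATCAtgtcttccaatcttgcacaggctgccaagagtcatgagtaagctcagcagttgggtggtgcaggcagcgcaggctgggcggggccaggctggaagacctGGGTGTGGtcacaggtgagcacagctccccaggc
Cdhr2, chr13:54701313-54701462, plus strand: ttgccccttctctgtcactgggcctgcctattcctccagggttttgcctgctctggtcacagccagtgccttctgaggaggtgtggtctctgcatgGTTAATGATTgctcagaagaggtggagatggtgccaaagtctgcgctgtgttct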

How the data were processed

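The values are the authors' deposited counts of reads per gene, whole numbers in 1 table of 33 library columns, of which 2 matched no sample and were not used. The submitters' processing notes name STAR 2.5.3a, HTSeq, Bowtie2 and MACS2 and the build mm9, without their roles. Reads were 75 bases, single end, per the labels' protocols. Of 24015 symbols, 17239 passed edgeR's filterByExpr (minimum count 10), and 2 rows with no gene name held 0% of counts. All 27 embryonic libraries (13 groups, 14 residual degrees of freedom) were fitted together with edgeR 4.0.16 (quasi-likelihood, TMM scaling, limma 3.58.1, R 4.3.3). Contrasts were forestomach minus hindstomach at E16, at E14, and the change between them, with p-values adjusted by Benjamini-Hochberg over all tested genes. A call needed an adjusted p below 0.05 and an absolute log2 fold change of 1. The code was tested on simulated data.

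Named genes were the core genes of 18 lists, outside the lists the top 12 calls by fold at E16 in each direction (at least 20 CPM, non-overlapping groups), and the 6 per direction with the largest change between the days, with other list members as examples; a few genes that the rule names are not reported here. The members and lists were chosen with earlier results of these data known. Where a gene had no count in the lower group, the fold is a lower bound from 3 counts per library, and with 1 to 3 counts it is a ratio with a 95% interval that covers counting error only. Same-numbered libraries did not deviate together (correlations 0.0211 at E16 and 0.0439 at E14), so the main fit has no replicate block. Alternatives were RLE scaling, DESeq2 1.42.0, no filter, a fit of only the groups compared, the block, thinning, leaving out each library, no fold minimum, and removal of marker genes.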

Additional observations from a re-analysis of the deposited data

Results flagged for a closer look

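The difference between forestomach and hindstomach at E16 was set against that at E14 by an interaction term in the edgeR fit, and 43 of the genes reported here by the naming rule passed the test of that change. The values below are changes of the log2 difference, forestomach minus hindstomach, from E14 to E16. Groups of 2 libraries are too small to look for a single outlying library.

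Of squamous genes, Sprr3 moved by 8.01, while Col17a1 (-3.69), Tgm1 (-2.62), Pkp1 (-4.34) and Serpinb5 (-4.13) moved the other way, as did the desmosomal cadherin Dsg2 (-2.46) and, of the retinoid genes, Fabp5 (-1.06). Of 8 fits that each left out 1 library, Tgm1 lost its call in 8 and Serpinb5 and Fabp5 in 7, and in other alternatives Tgm1 lost it in 3 and the other two in 4 (adjusted p up to 0.182, 0.195 and 0.12). Col17a1 lost it in 2 of those 8 fits and Sprr3 in 1. Of glandular regulators, Gata4 moved by -1.21, Foxa2 by -3.69, Hnf4a by -1.87 and Foxq1 by -3.53. Of mucous, chief and parietal genes, Muc1 moved by -1.55, Muc13 by -14.64, Gkn3 by -8.15, Pgc by -2.75, Atp4a by -2.66 and Atp4b by -5.00. The change of Atp4a was lost in 8 of 8 fits without 1 library and in 3 other alternatives (adjusted p up to 0.163), that of Pgc in 2 of 8, that of Muc13 in 1 of 8 (adjusted p = 1), and that of Atp4b in none. Among the regulators, Hnf4a lost its call in 5 of 8 and Gata4 in 1 of 8. Simple epithelial genes moved the same way, with Krt8 at -2.43, Krt18 at -1.98, Krt19 at -1.76, Vil1 at -9.39 and Cdhr2 at -9.05, beside Epcam at -1.85 and Cdh1 at -2.44.

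Of signalling and cell cycle genes, Fzd10 moved by 6.59 and Dll1 by 1.98, and Lgr5 by -4.56, Shh by -4.72, Ihh by -1.61 and Top2a by -1.25. Fzd10 lost its call in 7 of 8 fits without 1 library. Outside the lists, changes toward the forestomach were 11 for Galnt6, 9.15 for Agt, 8.77 for Cxcl10, 7.90 for Insc, 7.90 for Cpxm2, 7.69 for Kel, 7.61 for Nccrp1 and 7.11 for Lgals7. Changes toward the hindstomach were -10.61 for the pancreatic marker Prss2, -8.32 for Lrrc4c, -8.20 for Cps1, -5.56 for Fcgbp and -4.22 for Abcc8. Without 1 library, Insc and Lrrc4c lost their calls in 8 of 8 fits, Cps1 in 7, Cpxm2 in 6, Cxcl10 in 5 and Kel in 1. Sizes above about 6 mostly involve a group near 0 counts, where the fitted value depends on the prior count and is no bound.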

How the results depend on the processing

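No call at E16, at E14 or of the change was made in the opposite direction under any alternative run. With no fold minimum E16 had 5674 calls, 2032 higher and 3642 lower. A fit of only the groups compared gave 1651 higher at E16, 2233 calls (793 higher) at E14 and 1322 changes toward the forestomach, and DESeq2 gave 1138 of the last. Leaving out 1 library gave 2596 to 3038 calls at E16, 1417 to 1972 changes, and at E14 960 to 1127 calls, 293 to 374 higher and 594 to 753 lower; the lone sample left in a group is assumed to vary like the other groups. With the replicate block, calls numbered 3290, 1323 and 1867; the samples share only a number. Thinning gave 3777 calls at E16, 38.5% of them higher, and removal of marker genes 3444.

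Of 91 named genes called at E16, 73 were called under every alternative, as were 45 of 62 at E14 and 26 of 45 for the change between the days. The other 19 changes were lost without at least 1 library, and 11 of them in another alternative too. Sign changes befell genes not called at E16. Leaving out 1 E16 library at a time, Slc26a7 ran from -0.57 to 1.24, Notch1 from -0.18 to 0.38, Bmp7 from -0.14 to 0.72 and Mki67 from -0.32 to 0.32, with the low end without forestomach replicate 2 except for Bmp7 (replicate 1). Mki67 was -0.04 without hindstomach replicate 1, and Mcm5 was 0.00 with RLE scaling and 0.00 with DESeq2. The cause was not tested. With 2 libraries a group and shallow forestomach libraries, genes near 0.463 CPM there are at the level of 3 counts.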

Other observations

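The 2 libraries labelled E12 hindstomach, which entered the fit only as a group of their own, stood apart from the other 25 embryonic libraries in genes of position along the gut. Hoxa13 read 9.91 and 12.1 CPM against at most 0.382 CPM elsewhere, and Hoxd13 read 29.6 and 32.3 CPM against at most 0.0352 CPM. Hoxa10 read 104 and 120 CPM against at most 3 CPM. Gata4, a gene of the hindstomach at the later days, read 0.369 and 0.569 CPM against 14.2 to 379 CPM in the others. No E12 library is used in a comparison here.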
